A study of Mus musculus with 19 samples.

Results

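Cerebral microvessels of mice exposed to cigarette smoke were compared directly with those of mice exposed to a nicotine-free electronic cigarette, with no room air set subtracted. The libraries were chosen by their titles: 4 are titled smoke and 4 are titled Nic-free, so 8 of the 19 libraries of the study enter the comparison. All came from male C57BL/6 mice bought at 7 weeks of age, and each library is polyadenylated RNA of cerebral microvessels, sequenced single-end and strand-specifically at 80 nt. Mice of the smoke group are labelled with smoke exposure and those of the Nic-free group with nicotine-free electronic cigarette exposure. The dose, length and device of exposure are not given in the sources used here. Another 8 libraries, 4 titled air and 4 titled Room-air, are both labelled with room air exposure and are used below as a second, exposure-free comparison. No label says which room air set belongs to which exposure. Nothing in the labels says that the 4 libraries of a group are separate animals, so each p-value speaks of the spread among these libraries alone, which may be technical.

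Brain capillaries form the blood-brain barrier: endothelial cells are sealed by tight junctions, carry nutrients by dedicated transporters, and are wrapped by pericytes and by the end-feet of astrocytes. Cigarette smoke carries combustion products such as polycyclic hydrocarbons, which are known ligands of the aryl hydrocarbon receptor, and oxidants, which are known to release the transcription factor NRF2. A nicotine-free electronic cigarette heats a liquid without burning tobacco, so a direct comparison sets a burnt and an unburnt inhaled product against each other.

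Total counts per library were 7.9 to 12.6 M (1e6 reads in genes) in smoke and 15.2 to 19.1 M in Nic-free, so the depth of both groups did not overlap and cannot be told apart from the exposure. Reads assigned to no feature in counting made up 30.8 ± 1.84% of the reads in smoke and 42.1 ± 2.58% in Nic-free (SD, n = 4 each). The difference had p = 0.0286 by an exact two-sided permutation test, the smallest that 4 against 4 libraries can give. The same share was 35.4 ± 1.63% in air and 30.7 ± 2.28% in Room-air. Of these groups, Nic-free thus had the highest share of reads in no feature. Such reads can lie in introns of annotated genes if exons alone were counted. The part of this share in the results below was not tested. The defining markers of the labelled tissue were present: the summed level of 23 endothelial markers was 5118 to 5899 CPM (counts per 1e6 reads in genes, normalised over 16 libraries) in smoke and 4099 to 6013 in Nic-free. Markers of other brain cells were present too, at higher sums. The sum of 11 oligodendrocyte markers was 16790 to 26940 CPM in smoke and 19410 to 21180 in Nic-free. That of 20 neuron markers was 7302 to 12770 and 10990 to 12720 CPM. Such sums depend on which genes are listed. Smoke replicate 3 lay apart from the other smoke libraries on the first principal component of the 16 libraries (33.7% of the variance), at -36.3 against -2.66 to 27.4, within the span of Room-air (-40.7 to -26.2).

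In smoke, 1330 of 15643 genes tested (8.5%) differed from Nic-free at an adjusted p under 0.05, by edgeR's quasi-likelihood test with Benjamini-Hochberg adjustment (n = 4 each). Of these, 448 were higher (2.86%) and 882 lower (5.64%), so falls were the more common change. Most changes were small: the median log2 fold change was 0.43 among higher genes and -0.54 among lower genes, and 18 higher and 99 lower genes changed at least 2-fold. The library values of both groups were fully apart in 441 of the 448 higher genes and 845 of the 882 lower genes, against 7.94% apart and higher and 8.85% apart and lower of all genes tested (16.8% in all). With DESeq2 in place of edgeR, 861 genes were higher and 1043 lower, so the share of higher genes among the calls was 45.2% with DESeq2, against 33.7% with edgeR. The count also rested on single libraries: it was 373 without Nic-free 4, 455 without Nic-free 2, 547 without smoke 1 and 741 without Nic-free 1, each with 1 library fewer in a group. Without smoke 3, the library that lay apart, 1408 genes were called (603 higher, 805 lower), and without smoke 2 there were 698 higher genes. None of the 1330 genes turned its direction in an alternative fit that tested it, with up to 30 of them untested in a fit. These fits reuse the same libraries, and most calls had groups fully apart, so a reversal was hardly possible.

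Genes of synapses and of cell contact in the nervous system were among the falls with the lowest p. Several genes of this and the next paragraphs were named by a rule that also asked for no call between air and Room-air, so their room air values are partly a matter of choice. Cd47, which codes for the cell surface protein that signals to phagocytes not to engulf, had 68.3, 72.9, 74.8 and 79.1 CPM in smoke 1 to 4, against 148, 164, 137 and 163 CPM in Nic-free 1 to 4. It thus stood at about the same level in all 4 smoke libraries, below every Nic-free library, and fell by 1.07 ± 0.09 on the log2 scale (± is the SE here and below; edgeR adjusted p = 0.000186). In the air and Room-air libraries Cd47 lay at 83.6 to 91 and 69.2 to 98.9 CPM, below every Nic-free library too. Gabrb1, a subunit of the GABA-A receptor, had 31, 38, 32 and 36.2 CPM in smoke and 79.3, 88.8, 69.5 and 84.1 CPM in Nic-free (log2 fold change -1.25 ± 0.10, edgeR adjusted p = 0.000186). Its room air values, 35.2 to 38.3 CPM in air and 21.6 to 41.8 in Room-air, again lay with smoke and under all Nic-free libraries. Cntnap5a, a neuronal contactin-associated protein, had 8.09, 8.64, 8.28 and 9.95 CPM in smoke and 20.5, 26.7, 22.5 and 23.5 CPM in Nic-free (log2 fold change -1.42 ± 0.12, edgeR adjusted p = 0.000186). Adgrl3, a latrophilin receptor of synaptic contacts, had 71.6, 89.8, 68.2 and 82.8 CPM in smoke and 156, 189.7, 173 and 184 CPM in Nic-free (log2 fold change -1.19 ± 0.10, edgeR adjusted p = 0.000267). In both genes the smoke values were nearly level and the Nic-free values all lay above them.

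**Figure D1:**
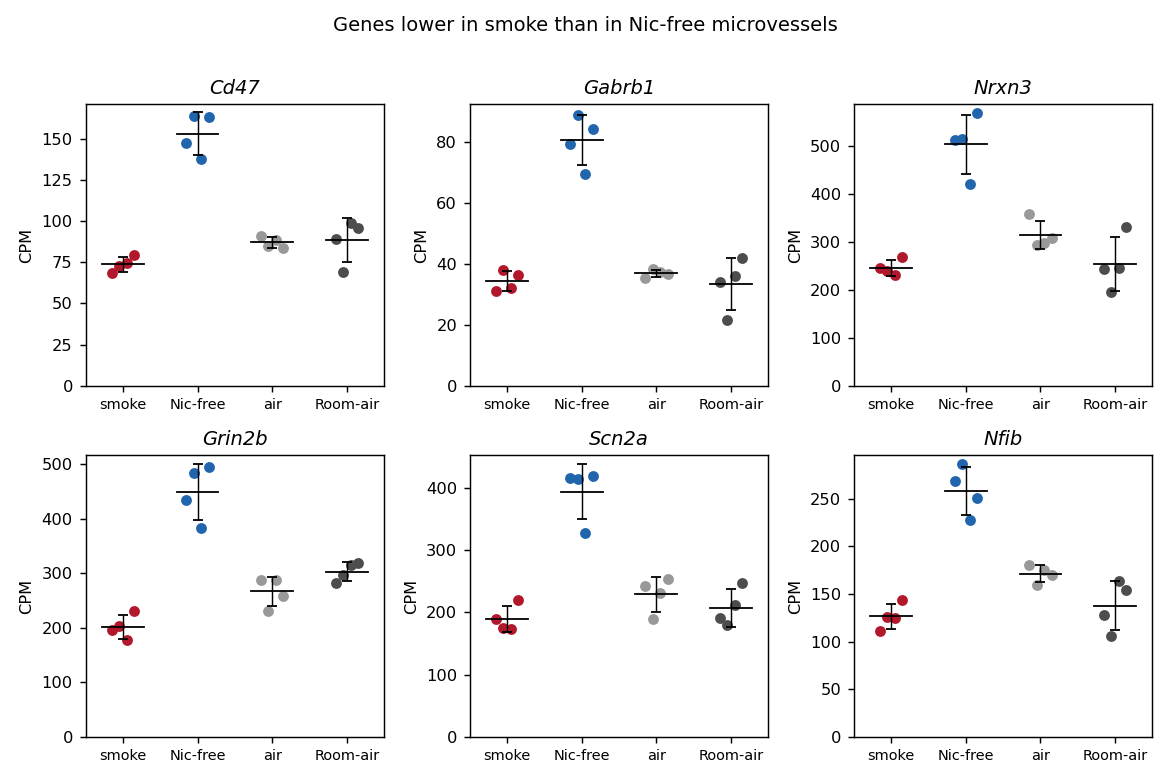
CPM of 6 genes that were lower in smoke than in Nic-free, 1 point per library, with the mean (bar) and SD (whiskers) of 4 libraries in each of the groups smoke, Nic-free, air and Room-air. In each panel the 4 Nic-free points lie above all 12 others; in Cd47 they span 137 to 164 CPM, against 68.3 to 79.1 CPM in smoke.

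Channels and adhesion molecules of neurons were also named. Grin2b, an NMDA receptor subunit, had 196, 203, 177 and 229.9 CPM in smoke and 434, 484, 383 and 494 CPM in Nic-free (log2 fold change -1.17 ± 0.11, edgeR adjusted p = 0.000537). Scn2a, a neuronal sodium channel, had 189.6, 175, 172 and 219 CPM in smoke and 415, 414, 327 and 419 CPM in Nic-free (log2 fold change -1.07 ± 0.12, edgeR adjusted p = 0.000821). Within Nic-free, replicate 3 was the lowest in both genes and still lay above every smoke library. Nrxn3, a presynaptic neurexin, fell by 1.05 ± 0.11 on the log2 scale (edgeR adjusted p = 0.000797), with 229.9 to 269 CPM in smoke and 420 to 567 CPM in Nic-free. The secreted synaptic organiser C1ql3 had 46.1, 65.4, 39.5 and 66.6 CPM in smoke and 136, 157, 114 and 143 CPM in Nic-free (log2 fold change -1.36 ± 0.17, edgeR adjusted p = 0.00205). Mdga2, Cdh13 and Flrt1, which are further adhesion molecules of neurons, fell by 1.07, 0.91 and 1.13 on the log2 scale (edgeR adjusted p = 0.000519, 0.000821 and 0.000777). Not all of the falls were synaptic genes. Nfib, a transcription factor of glial development, had 112 to 144 CPM in smoke and 228 to 286 CPM in Nic-free (log2 fold change -1.05 ± 0.11, edgeR adjusted p = 0.000617). Lpl, the lipase of the vessel wall that splits triglycerides of lipoproteins, had 15.2, 16, 14.9 and 18.2 CPM in smoke and 31.2, 38.4, 27.9 and 39.8 CPM in Nic-free (log2 fold change -1.10 ± 0.13, edgeR adjusted p = 0.00098). Rnf168, a ubiquitin ligase of the DNA damage response, fell by 1.02 ± 0.10 (edgeR adjusted p = 0.000537), and Inhba, a subunit of activin, fell by 1.16 ± 0.19 (edgeR adjusted p = 0.00479). Each gene of this paragraph passed in all 17 alternative fits (other tools, scalings and filters, and each library left out in turn).

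Where the groups stood relative to the 8 room air libraries differed between falls and rises. Of the 882 genes lower in smoke, 307 (34.8%) had every Nic-free library above all 12 others, and 45 (5.1%) had every smoke library below all 12 others. Of the 448 genes higher in smoke, 71 (15.8%) had every Nic-free library below all 12 others and 29 (6.47%) had every smoke library above all 12 others. The 4 shares among the 14313 genes that did not pass were 0.587, 0.126, 0.454 and 0.265%, in the order just given. A call already requires smoke and Nic-free to differ, so these counts describe the calls and test nothing. Nic-free lay farther than smoke from the mean of the room air sets in 76.9% of lower, 56.5% of higher and 53.4% of uncalled genes. The 307 became 165, 181 and 183 without Nic-free 4, Nic-free 2 or smoke 1, and the 29 became 5 to 36 when single libraries were left out, the lowest being without Nic-free 4, then Nic-free 2 (6), smoke 1 (11), Nic-free 1 (13) and Nic-free 3 (17).

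Among the rises, vessel genes and genes of several signalling routes were found. Ptch1, the receptor and target gene of hedgehog signalling, had 29.2, 40.7, 24.2 and 26.4 CPM in smoke and 14.6, 13.2, 15.4 and 13.9 CPM in Nic-free, with all smoke libraries above all Nic-free libraries (log2 fold change 1.05 ± 0.15, edgeR adjusted p = 0.00238). Fmo2, a flavin-containing monooxygenase that oxidises foreign compounds, had 14.1, 12.3, 16.6 and 22.2 CPM in smoke and 6.37, 7.77, 7.46 and 4.75 CPM in Nic-free (log2 fold change 1.30 ± 0.20, edgeR adjusted p = 0.00425). Itm2a, a membrane protein used as an endothelial marker, had 246, 226, 311 and 320.5 CPM in smoke and 144, 154, 185 and 143 CPM in Nic-free (log2 fold change 0.80 ± 0.13, edgeR adjusted p = 0.00498). These 3 genes share a pattern over the room air libraries: each was lower in air than in Room-air, with log2 fold changes of -0.90, -1.42 and -0.98 (edgeR adjusted p = 0.00427, 0.004 and 0.00197). Their smoke values overlapped with Room-air and their Nic-free values with air. Selenop, which codes for the selenium transport protein, had 416, 510, 424 and 459.5 CPM in smoke and 256, 296, 304 and 289 CPM in Nic-free (log2 fold change 0.64 ± 0.10, edgeR adjusted p = 0.00406). Tnfrsf25, a death receptor, rose by 0.99 ± 0.17 (edgeR adjusted p = 0.00754) and the matrix metalloproteinase Mmp23 by 1.00 ± 0.18 (edgeR adjusted p = 0.00817). Sgsm1, Hps4, Capn15 and Kif13b were named for a low p, and Crocc, Plcd4, Fyco1, Ppfia1, Syne4, Ankrd13b, Mthfsd and Selenop, like Sgsm1 and Hps4, by the rule that also asked for a call after subtraction and none between air and Room-air. Apart from Selenop, given above, they rose by 0.47 to 0.81 on the log2 scale. Among them, Fyco1 and Kif13b act in transport along microtubules, Crocc builds the rootlet of cilia and Hps4 takes part in forming lysosome-related organelles. In Sgsm1, Hps4, Crocc and Mmp23 the Nic-free libraries lay below every room air library as well as every smoke library. In Tnfrsf25 they overlapped with air.

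**Figure D2:**
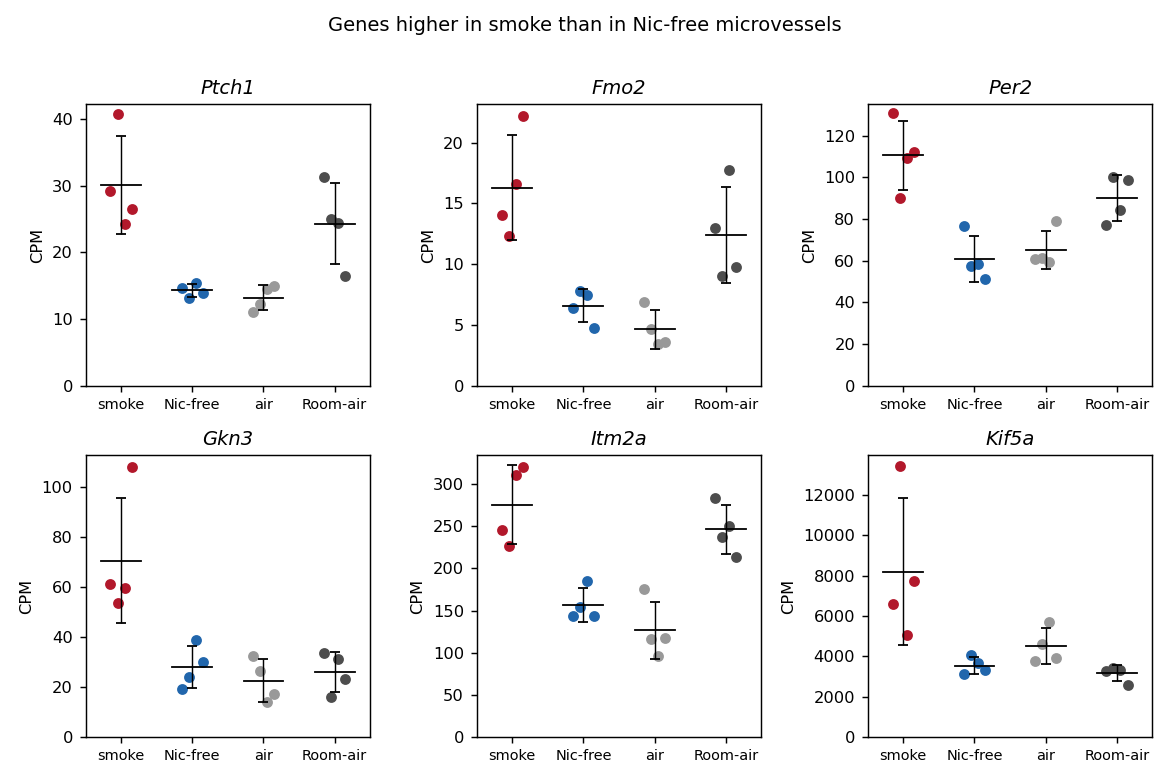
CPM of 6 genes that were higher in smoke than in Nic-free, 1 point per library, with the mean (bar) and SD (whiskers) of 4 libraries in each of the groups smoke, Nic-free, air and Room-air. The 4 smoke points lie above the 4 Nic-free points in each panel. Ptch1, Fmo2, Itm2a and Per2 are also lower in air than in Room-air, and Kif5a is higher in air. Kif5a is spread from 5039 to 13420 CPM in smoke.

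Other large rises varied more between libraries. Gkn3, an arterial endothelial gene of the mouse brain, had 61.2, 53.5, 59.5 and 108 CPM in smoke and 19, 24, 38.9 and 29.8 CPM in Nic-free (log2 fold change 1.33 ± 0.29, edgeR adjusted p = 0.0317). Smoke 4 was the highest, but the other smoke libraries also lay above all Nic-free, air and Room-air libraries, whose highest value was 38.9 CPM. Kif5a, a neuronal kinesin heavy chain, had 6595, 13420, 5039 and 7707 CPM in smoke and 3095, 4063, 3652 and 3302 CPM in Nic-free (log2 fold change 1.20 ± 0.27, edgeR adjusted p = 0.0187). Luzp2, Nwd1, the fatty acid desaturase Fads2 and the stress-induced Sesn3 rose by 1.08, 0.96, 0.87 and 0.86 on the log2 scale (edgeR adjusted p = 0.0268, 0.0136, 0.019 and 0.0207). In these 4 genes and in Kif5a the highest library was smoke 2, the library with the fewest counts. Nwd1 and Fads2 were also lower in air than in Room-air (log2 fold change -0.37 and -0.58, edgeR adjusted p = 0.0264 and 0.00201). Luzp2 and Sesn3 did not pass there. Left out 1 at a time, single libraries ended the call of Gkn3 without smoke 1 or 3 or Nic-free 1, 2 or 4 (0.0571 to 0.0964), of Kif5a without Nic-free 1, 2 or 4 (0.0556 to 0.0794), of Luzp2 without smoke 1 or 4 or Nic-free 1, 2, 3 or 4 (0.0543 to 0.1), of Fads2 without Nic-free 2 or 4 (0.0587 to 0.074) and of Sesn3 without Nic-free 3 or 4 (0.0532 to 0.0687), each given with its edgeR adjusted p. With no filter on low counts the calls of Gkn3 and Luzp2 also ended (edgeR adjusted p = 0.0774 and 0.0765). None of these libraries was smoke 2, and Nwd1 passed in every alternative.

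Genes known to respond to smoke constituents were counted next. Of all 15643 genes, edgeR called 8.5% (2.86% higher, 5.64% lower), and 3769 had an unadjusted p under 0.05. DESeq2 called 861 higher and 1043 lower. None of the 7 aryl hydrocarbon receptor genes tested passed with edgeR (median log2 fold change -0.001, against 0.009 over all genes), none with DESeq2, and 0 had an unadjusted p under 0.05. At the share called of all genes, a list of 7 may hold no call, so this count says little about the receptor. Cyp1b1, a xenobiotic-oxidising target of the receptor, had 6, 5.89, 10.8 and 14.2 CPM in smoke and 6.43, 10.5, 11.9 and 8.32 CPM in Nic-free (edgeR adjusted p = 0.999), with overlapping groups. The receptor's repressor Ahrr averaged 2.19 ± 0.196 CPM in smoke and 2.31 ± 0.323 CPM in Nic-free (SD; edgeR adjusted p = 0.819). Cyp1a1, the classical target, had 1 read over the 4 smoke libraries and 5 over the 4 Nic-free libraries and was not tested. Of the 27 NRF2 and antioxidant genes, 1 (3.7%) was higher and 0 lower, against 2.86% higher of all genes (DESeq2: 1 and 1; median 0.03). That gene was Nfe2l2, which codes for NRF2 itself, with 34.5, 34.7, 45.5 and 36 CPM in smoke and 31, 26.2, 25.7 and 23.1 CPM in Nic-free (log2 fold change 0.49 ± 0.12, edgeR adjusted p = 0.0273). Smoke 3 was the highest library, the groups did not overlap, and the call ended without Nic-free 2, 3 or 4 (0.0604 to 0.0887). Its enzyme targets Nqo1 and Hmox1 had log2 fold changes of -0.02 ± 0.56 and -0.13 ± 0.17 (edgeR adjusted p = 0.99 and 0.702). The metal-binding Mt1 and Mt2 had -0.10 ± 0.28 and -0.003 ± 0.25 (edgeR adjusted p = 0.879 and 0.996). No hypoxia and glycolysis gene (26 tested), NF-kB or cytokine gene (16) or nicotinic receptor gene (7) passed with edgeR or DESeq2, and 2, 0 and 2 of them had an unadjusted p under 0.05.

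Clock repressors and heat shock genes were among the rises. Of 19 circadian clock genes, 3 (15.8%) were higher and 0 lower, against 2.86% higher of all genes (median 0.12). DESeq2 called 4 higher and 1 lower, against 861 higher and 1043 lower of all 15643 genes. Per2, a repressor of the clock, had 131, 90.3, 109 and 112 CPM in smoke and 76.8, 57.4, 58.6 and 51.1 CPM in Nic-free (log2 fold change 0.85 ± 0.14, edgeR adjusted p = 0.00602). Per1, its paralog, had 142, 131, 132 and 137 CPM in smoke and 120.3, 103, 107 and 103 CPM in Nic-free (log2 fold change 0.31 ± 0.08, edgeR adjusted p = 0.0417), and Bhlhe40, a repressor of the same loop, rose by 0.29 ± 0.08 (edgeR adjusted p = 0.045). All 3 had smoke fully above Nic-free. The activator Arntl (log2 fold change 0.11, edgeR adjusted p = 0.458) and the output gene Dbp (0.33, edgeR adjusted p = 0.0841) did not pass. Dbp passed with DESeq2 (adjusted p = 0.0389) and without smoke 3 (edgeR adjusted p = 0.0206). Per1 lost its call without smoke 1 or 4 or Nic-free 2, 3 or 4 (0.0719 to 0.121) and Bhlhe40 without smoke 2 or 4 or Nic-free 1, 2, 3 or 4 (0.0515 to 0.125). Other settings ended the calls of Per1 in the fit of all 19 libraries (0.0836) and with thinned counts (0.0511) and Bhlhe40 with no filter (0.0598). A replicate block (the replicate number added to the fit) ended both, at edgeR adjusted p = 0.0568 for Per1 and 0.0903 for Bhlhe40. The hour of tissue collection is not given in the sources used here. Per2, Per1 and Bhlhe40 also differed between the room air sets. Their log2 fold changes for air over Room-air were -0.48, -1.04 and -0.32 (edgeR adjusted p = 0.0088, 0.000436 and 0.0253).

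The promoter of Per1, shown because the E-box CACGTG is the letter pattern through which the clock's activators are known to bind, holds that pattern once, 166 bases before the start of transcription (GRCm38.p6, RefSeq, chr11:69098699-69098948, plus strand, upstream bases only, E-box in capitals). The promoters used hold 2 starts for Per1, and the other start was not examined singly for the E-box. The shown window lies within the span of Per1 in the gene annotation (chr11:69095217-69109960), past the first annotated start. Of 32851 upstream windows of the same 250 bases, 6.02% hold the E-box.
Per1: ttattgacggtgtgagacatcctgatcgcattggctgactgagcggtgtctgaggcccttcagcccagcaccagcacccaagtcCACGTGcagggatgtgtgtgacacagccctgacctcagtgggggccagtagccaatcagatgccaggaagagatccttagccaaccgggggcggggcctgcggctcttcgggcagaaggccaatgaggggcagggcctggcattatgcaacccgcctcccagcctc
The match is a description of the letters and no site of binding was measured.

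Of 16 heat shock genes, 3 (18.8%) were higher and 0 lower, against 2.86% higher and 5.64% lower of all genes (median 0.25). DESeq2 called 5 higher, against 861 higher of all 15643 genes. Hspa1a, a stress-inducible chaperone, had 9.23, 13.8, 10 and 6.32 CPM in smoke and 4.71, 5.39, 4.75 and 4.75 CPM in Nic-free (log2 fold change 0.97 ± 0.20, edgeR adjusted p = 0.0136). Its near-identical neighbour Hspa1b had 7.33, 10.7, 7.39 and 4.89 CPM in smoke and 4.31, 3.71, 4.33 and 4.22 CPM in Nic-free (log2 fold change 0.83 ± 0.20, edgeR adjusted p = 0.0278). Reads of these paralogs can be split or dropped in counting, so each value is uncertain, and the highest library in both was smoke 2. Hsf1, the transcription factor that drives heat shock genes, had 94.5, 85.5, 89.9 and 80.1 CPM in smoke and 64.7, 64.2, 74.2 and 66.1 CPM in Nic-free (log2 fold change 0.36 ± 0.08, edgeR adjusted p = 0.022). The calls ended for Hspa1a without Nic-free 4 (0.0548), for Hspa1b without smoke 1 or Nic-free 1, 2, 3 or 4 (0.0523 to 0.0899) and for Hsf1 without smoke 1 or Nic-free 1, 2 or 4 (0.0636 to 0.0757) (edgeR adjusted p). Other settings ended the calls of Hspa1a in the fit of all 19 libraries (0.0648) and Hspa1b in the fit of all 19 libraries (0.247) and with thinned counts (0.0533), given with the adjusted p. The upstream windows of Hspa1a (chr17:34972157-34972406) and Hspa1b (chr17:34959239-34959488), both on the minus strand of GRCm38.p6 in RefSeq, are shown because they are alike: 247 of 250 positions are identical. Both hold 1 heat shock element of the form GAANNTTC (or TTCNNGAA, searched on both strands), 104 bases before the start and in capitals below, as do 12.8% of all 32851 windows.
Hspa1a: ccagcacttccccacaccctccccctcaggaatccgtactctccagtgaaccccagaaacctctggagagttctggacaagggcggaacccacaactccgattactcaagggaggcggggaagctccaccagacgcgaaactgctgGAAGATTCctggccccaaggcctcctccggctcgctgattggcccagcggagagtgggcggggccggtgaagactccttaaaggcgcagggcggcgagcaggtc
Hspa1b: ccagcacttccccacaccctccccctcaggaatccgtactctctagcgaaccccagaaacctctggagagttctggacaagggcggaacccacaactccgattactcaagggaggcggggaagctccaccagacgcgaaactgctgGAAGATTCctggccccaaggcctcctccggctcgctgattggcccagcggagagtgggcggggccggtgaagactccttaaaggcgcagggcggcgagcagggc

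Immediate early and steroid-responsive genes were called in both directions, and interferon genes only higher with edgeR and DESeq2. Of all genes, edgeR called 2.86% higher and 5.64% lower, and DESeq2 called 861 higher and 1043 lower of 15643. Of 25 immediate early genes, 2 (8%) were higher (Maff, 0.79 ± 0.21, and Atf3, 0.85 ± 0.24; edgeR adjusted p = 0.0364 and 0.0491) and 1 (4%) was lower. The lower one was Klf6, a zinc finger transcription factor, with 38, 41.7, 49.6 and 52.1 CPM in smoke and 68.5, 80.5, 71 and 72.1 CPM in Nic-free (log2 fold change -0.70 ± 0.11, edgeR adjusted p = 0.00372). Fos had 20.3, 17.6, 8.6 and 14.3 CPM in smoke and 20.7, 15.2, 9.39 and 25.1 CPM in Nic-free (edgeR adjusted p = 0.747). Among 20 interferon genes, 2 (10%) were higher and 0 lower (DESeq2: 3 and 0), both members of the signalling complex itself: Irf9, with 48.4, 49.9, 52.5 and 38.3 CPM in smoke and 36.3, 35.5, 31.2 and 25.2 CPM in Nic-free (log2 fold change 0.54 ± 0.13, edgeR adjusted p = 0.0264), and Stat2 (0.28 ± 0.08, edgeR adjusted p = 0.0425). The other 18 members did not pass with edgeR. Of these, singled out after their values were seen, Ifih1 and Usp18 had 0.47 and 0.34 with smoke above Nic-free in every library (edgeR adjusted p = 0.0731 and 0.16). Ifit3, Ifit1 and Isg15 had 0.25, -0.09 and -0.10 with overlapping groups (edgeR adjusted p = 0.223, 0.759 and 0.741). Of 19 glucocorticoid-induced genes, Per1 (5.26%) was higher and 2 (10.5%) were lower. Klf9 had 96.1, 118, 90.2 and 117 CPM in smoke and 159.9, 211, 148 and 164 CPM in Nic-free (log2 fold change -0.71 ± 0.13, edgeR adjusted p = 0.00729). Cdkn1a, the cell cycle inhibitor p21, had 18, 15.1, 16.9 and 16.9 CPM in smoke and 20.3, 25.4, 24.3 and 21.3 CPM in Nic-free (log2 fold change -0.46 ± 0.11, edgeR adjusted p = 0.0216), while Fkbp5 had -0.11 (edgeR adjusted p = 0.626). Cdkn1a lay at 15.7 to 29.5 CPM in air, against 88.7 to 111 CPM in Room-air. Klf6 and Klf9 passed in every alternative, whereas the calls ended for Maff without smoke 1, 3 or 4 or Nic-free 1, 2 or 4 (0.0536 to 0.114), Atf3 without smoke 1, 3 or 4 or Nic-free 1, 2, 3 or 4 (0.0593 to 0.14), Irf9 without smoke 1 or Nic-free 2, 3 or 4 (0.0524 to 0.0748), Stat2 without smoke 1 or 4 or Nic-free 1, 2, 3 or 4 (0.0585 to 0.125) and Cdkn1a without smoke 1 or 4 or Nic-free 2 or 4 (0.0506 to 0.0893) (edgeR adjusted p). Other settings ended the calls of Maff in the fit of all 19 libraries (0.0859) and with thinned counts (0.121), of Atf3 in the fit of all 19 libraries (0.114), with limma-voom (0.0509), with thinned counts (0.0907) and with upper-quartile factors (0.051), of Stat2 with no filter (0.0608) and of Cdkn1a with thinned counts (0.0592), given with the adjusted p. The replicate block ended the calls of Atf3, Stat2 and Cdkn1a (edgeR adjusted p = 0.0998, 0.0889 and 0.0538).

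Junction genes and transporters gave 1 call each with edgeR and more with DESeq2. Of all genes, edgeR called 2.86% higher and 5.64% lower, and DESeq2 called 861 higher and 1043 lower of 15643. Of 20 tight and adherens junction genes, 1 (5%) was higher and 0 lower (median 0.23), whereas DESeq2 called 4 higher. Jam2, a junctional adhesion molecule of endothelium, had 82.8, 97.7, 82.4 and 95.8 CPM in smoke and 65.2, 69, 76.9 and 64 CPM in Nic-free (log2 fold change 0.37 ± 0.09, edgeR adjusted p = 0.0295). Claudin-5, the main sealing protein of brain endothelium (Cldn5), had 309.8, 376, 337 and 379 CPM in smoke and 288, 386, 535 and 328 CPM in Nic-free (log2 fold change -0.15 ± 0.17, edgeR adjusted p = 0.651), with overlapping groups. Occludin (Ocln) had 0.39 (edgeR adjusted p = 0.244), VE-cadherin (Cdh5) 0.36 (0.157) and the scaffold Tjp1 0.31 (0.0565). Of 22 barrier transporters, 0 were higher and 1 (4.55%) was lower (median 0.17), whereas DESeq2 called 4 higher and 2 lower. The lower one with edgeR was Slc16a1, the monocarboxylate transporter of lactate and ketone bodies, with 50.4, 50.9, 70.6 and 71.4 CPM in smoke and 80.7, 87.9, 97.7 and 83.6 CPM in Nic-free (log2 fold change -0.53 ± 0.13, edgeR adjusted p = 0.0248). Its Nic-free libraries all lay above the room air libraries too, which reached 69.3 CPM. The glucose transporter Slc2a1 had 0.25 ± 0.17 (edgeR adjusted p = 0.407), the efflux pump Abcb1a 0.46 ± 0.14 (0.0647), the lipid carrier Mfsd2a 0.05 ± 0.14 (0.867) and the transferrin receptor Tfrc -0.37 ± 0.11 (0.0579). Jam2 lost its call without smoke 1 or 4 or Nic-free 1, 2 or 4 (0.0503 to 0.105), Slc16a1 without smoke 1 or Nic-free 2, 3 or 4 (0.0604 to 0.0862). The fit of all 19 libraries also ended both (edgeR adjusted p = 0.0932 for Jam2 and 0.0606 for Slc16a1), and the replicate block that of Jam2 (edgeR adjusted p = 0.0578). Conversely, Tjp1 passed without smoke 3 (edgeR adjusted p = 0.0435), Cdh5 and Abcb1a without Nic-free 3 (0.0295 and 0.0332) and Tfrc without smoke 4 (0.0333), and DESeq2 called Tjp1, Abcb1a and Tfrc (adjusted p = 0.00675, 0.0205 and 0.0203). Tjp1 also passed with a stricter filter and with thinned counts (edgeR adjusted p = 0.0496 and 0.0483), and Abcb1a with no filter (0.0424). None of the 18 Wnt receptor and target genes of brain endothelium passed with edgeR or DESeq2, and 2 had an unadjusted p under 0.05. Fzd4, a Wnt and Norrin receptor, had 12, 7.54, 25 and 9.08 CPM in smoke and 10.5, 4.64, 4.9 and 4.03 CPM in Nic-free (log2 fold change 1.16 ± 0.47, edgeR adjusted p = 0.184), overlapping through Nic-free 1. It passed in the fit of all 19 libraries (edgeR adjusted p = 0.0439).

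Adhesion, matrix and angiogenic genes gave calls in both directions, against 2.86% higher and 5.64% lower of all genes with edgeR. With DESeq2, 861 of all 15643 genes were higher and 1043 lower. Of 10 adhesion and activation genes tested, 0 were higher and 1 (10%) was lower: Ackr1, the chemokine receptor of venules, with 60.9, 50.3, 48.2 and 50.9 CPM in smoke and 64.1, 71.9, 69.3 and 74.9 CPM in Nic-free (log2 fold change -0.43 ± 0.09, edgeR adjusted p = 0.017). Icam1 (0.56 ± 0.27, edgeR adjusted p = 0.251) and Vcam1 (0.46 ± 0.15, edgeR adjusted p = 0.0918) did not pass. Vcam1 passed without smoke 2 (edgeR adjusted p = 0.0427), with the replicate block (edgeR adjusted p = 0.0311) and with DESeq2 (adjusted p = 0.0331). Of 20 matrix genes, 1 (5%) was higher and 3 (15%) lower (median 0.23), and DESeq2 called 3 higher and 3 lower. Col4a2, a chain of the collagen IV of basement membranes, had 324, 274, 257 and 298 CPM in smoke and 189.8, 215, 236 and 194 CPM in Nic-free (log2 fold change 0.45 ± 0.11, edgeR adjusted p = 0.0237). Its room air values, 271 to 319 CPM in air and 280 to 316 CPM in Room-air, lay with smoke and above every Nic-free library. Its partner chain Col4a1, named after its values were seen, had 0.11 ± 0.10 (edgeR adjusted p = 0.525). The lower genes were the membrane protease Mmp14 and the inhibitors Timp2 and Timp1, at -0.52, -0.41 and -1.64 (edgeR adjusted p = 0.0471, 0.0413 and 0.0344). Timp1 rests on 20 reads in smoke and 97 in Nic-free. Only 12 of the alternative fits gave a value for Timp1, and it passed in 10 of them. Of 20 VEGF, angiopoietin and Notch genes, 0 were higher and 2 (10%) lower. Nrp1, a co-receptor for VEGF and semaphorins, had 62.6, 56.6, 72.3 and 73.8 CPM in smoke and 119, 111, 109 and 113 CPM in Nic-free (log2 fold change -0.78 ± 0.10, edgeR adjusted p = 0.00128), with room air values of 62.7 to 87.3 CPM in air and 69.3 to 101 CPM in Room-air. Efnb2, the ephrin of arterial endothelium, had 45.9, 42.5, 43.2 and 48.1 CPM in smoke and 62.2, 57.4, 55.5 and 67.1 CPM in Nic-free (log2 fold change -0.44 ± 0.09, edgeR adjusted p = 0.0116). Nrp1 passed in every alternative, whereas Efnb2 lost its call without Nic-free 4 (0.0568), Ackr1 without smoke 4 or Nic-free 2 or 4 (0.0506 to 0.0791), Col4a2 without smoke 1 or 4 or Nic-free 1, 2 or 4 (0.0536 to 0.092), Timp1 without smoke 1 or 2 (0.0528 to 0.111), Timp2 without smoke 1 or 4 or Nic-free 1, 2, 3 or 4 (0.0515 to 0.145) and Mmp14 without smoke 1 or 4 or Nic-free 1, 2, 3 or 4 (0.0694 to 0.161) (edgeR adjusted p). Other settings ended the calls of Ackr1 in the fit of all 19 libraries (0.242) and of Mmp14 with RLE factors (0.0519), in the fit of all 19 libraries (0.0527), with a stricter filter (0.0517) and with thinned counts (0.0741), given with the adjusted p. The replicate block ended the calls of Col4a2 and Timp2 (edgeR adjusted p = 0.052 and 0.0711).

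**Figure D3:**
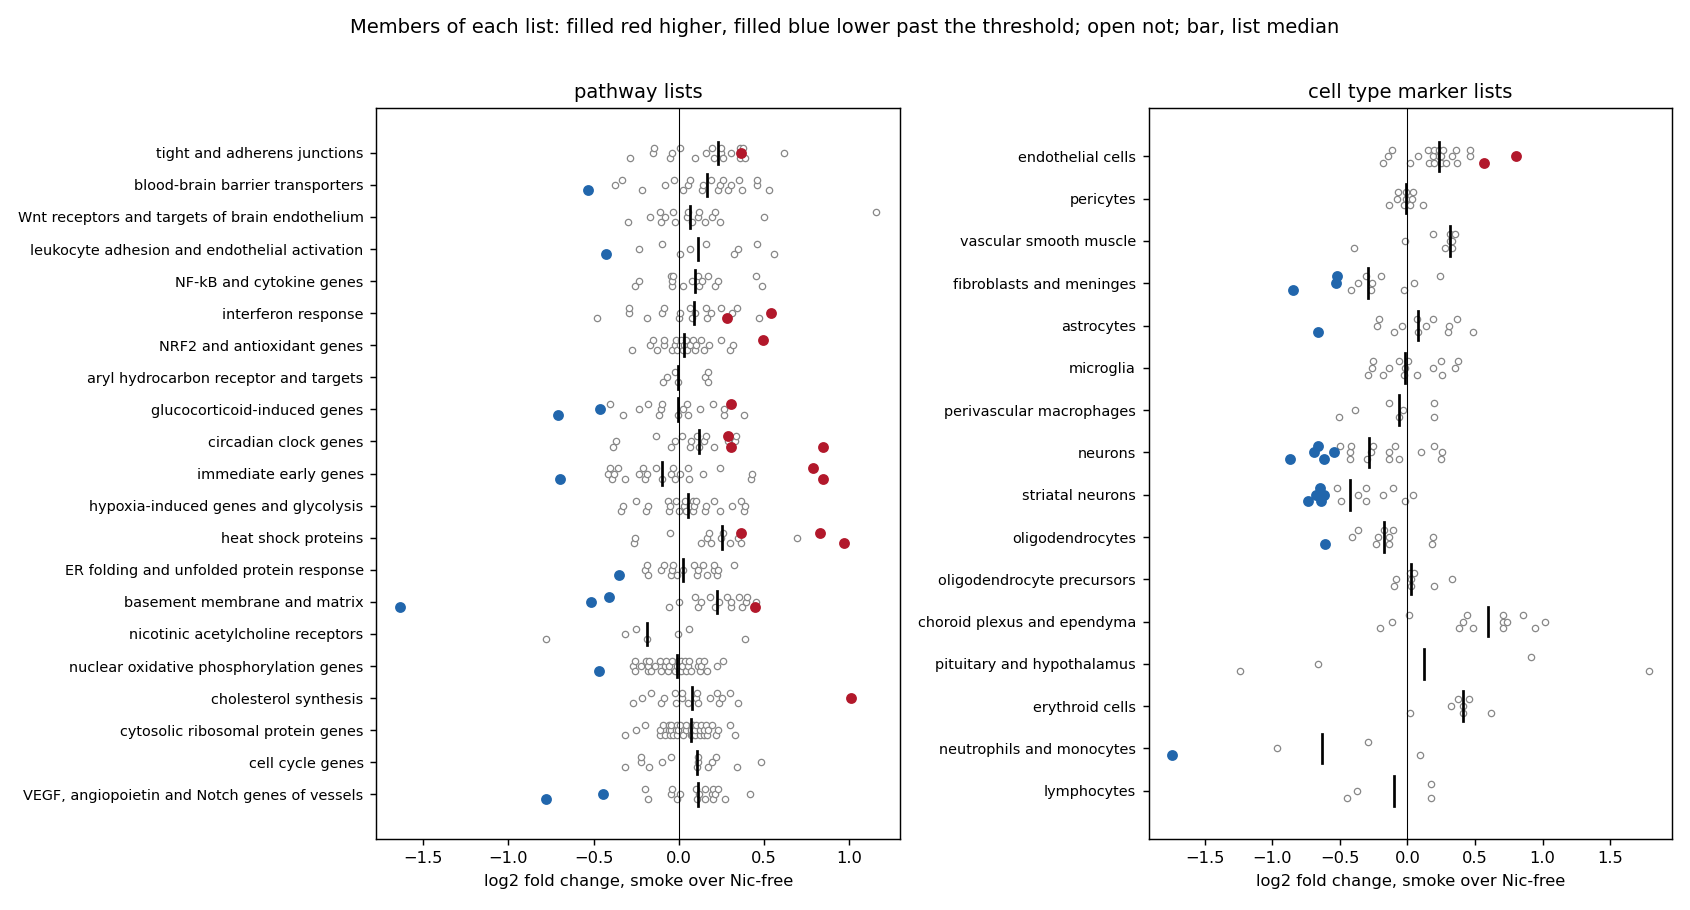
Log2 fold change of smoke over Nic-free for every tested member of 21 pathway lists (left) and 16 cell type marker lists (right), 1 point per gene, filled where it passed the threshold (red higher, blue lower) and open where it did not, with the list median as a bar. The filled points among the neuron and striatal neuron markers are 5 each and all lie below 0.

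Housekeeping lists were called at shares from 0 to 5%, against 2.86% higher and 5.64% lower of all genes. Of 39 nuclear genes of oxidative phosphorylation 1 was lower (Ndufa5, -0.47 ± 0.13, edgeR adjusted p = 0.0487). Of 21 genes of endoplasmic reticulum folding 1 was lower (Asns, -0.35 ± 0.09, edgeR adjusted p = 0.0366), and the chaperone Hspa5 had 0.17 ± 0.19 (edgeR adjusted p = 0.65). Of 20 cholesterol synthesis genes 1 was higher (Idi1, 1.01 ± 0.24, edgeR adjusted p = 0.0264). Of 43 ribosomal protein and 14 cell cycle genes none passed with edgeR or DESeq2, and 1 and 0 had an unadjusted p under 0.05. The calls ended for Ndufa5 without smoke 1, 3 or 4 or Nic-free 1, 2, 3 or 4 (0.0553 to 0.176), Asns without smoke 1, 3 or 4 or Nic-free 1, 2, 3 or 4 (0.0536 to 0.138) and Idi1 without smoke 1 or Nic-free 2, 3 or 4 (0.0637 to 0.0947) (edgeR adjusted p). Other settings ended the calls of Ndufa5 with RLE factors (0.062), in the fit of all 19 libraries (0.131) and with a stricter filter (0.0581), Asns in the fit of all 19 libraries (0.0534) and with thinned counts (0.0504) and Idi1 with thinned counts (0.0592). The replicate block ended the call of Asns (edgeR adjusted p = 0.0732).

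Some markers of neurons were lower in smoke, while most did not pass. Of 20 neuron markers, 0 were higher and 5 (25%) lower (median -0.28), and of 14 markers of striatal neurons 0 were higher and 5 (35.7%) lower (median -0.43), against 2.86% higher and 5.64% lower of all genes. Rbfox3, the nuclear marker NeuN, had 241, 293, 177 and 266 CPM in smoke and 346, 435, 364 and 414 CPM in Nic-free (log2 fold change -0.69 ± 0.14, edgeR adjusted p = 0.0144). The synaptic vesicle proteins Syp and Syt1 fell by 0.66 ± 0.15 and 0.62 ± 0.14 (edgeR adjusted p = 0.0215 and 0.0225), the growth cone protein Stmn2 fell by 0.54 ± 0.13 (edgeR adjusted p = 0.0242) and Nrgn, a postsynaptic calmodulin-binding protein, fell by 0.87 ± 0.21 (edgeR adjusted p = 0.026). Smoke 3 was the lowest library in all 5. Rbfox3, Stmn2 and Nrgn were also higher in air than in Room-air. Their log2 fold changes there were 0.52, 0.52 and 1.01 (edgeR adjusted p = 0.00669, 0.0347 and 0.00107). Syp and Syt1 did not pass there (0.13 and 0.26, edgeR adjusted p = 0.435 and 0.0882). As a list, neuron markers had a median of 0.29 for air over Room-air, with 5 higher and 0 lower. Striatal markers had -0.04, with 1 higher and 0 lower. In the striatal list, the dopamine receptor gene Drd1 had 23.6, 20.6, 19.2 and 19.9 CPM in smoke and 33.2, 28.9, 33.4 and 41.7 CPM in Nic-free (log2 fold change -0.74 ± 0.12, edgeR adjusted p = 0.00471). Penk, Adora2a and Pdyn fell by 0.68, 0.64 and 0.62 (edgeR adjusted p = 0.0248, 0.0255 and 0.0473), and Nic-free 4 was the highest library in each. Not every neuronal marker moved this way. Nefh and Map2, singled out after their values were seen, had 0.25 and 0.26 (edgeR adjusted p = 0.282 and 0.275), and Kif5a rose. The summed level of the neuron list was 7302 to 12770 CPM in smoke and 10990 to 12720 CPM in Nic-free, so the sums overlapped, and no member was at 0. In bulk tissue, fewer cells of a type and less RNA per cell cannot be told apart. Without single libraries the calls ended for Rbfox3 without smoke 1 or Nic-free 2 or 4 (0.0619 to 0.0701), Syp without smoke 1 or 4 or Nic-free 1, 2 or 4 (0.0509 to 0.0968), Syt1 without smoke 1 or Nic-free 1, 2 or 4 (0.0584 to 0.103), Stmn2 without smoke 1 or 4 or Nic-free 2 or 4 (0.0621 to 0.109), Nrgn without smoke 1 or 4 or Nic-free 2 or 4 (0.0621 to 0.0981), Penk without smoke 4 or Nic-free 3 or 4 (0.0501 to 0.0992), Adora2a without smoke 1 or 4 or Nic-free 3 or 4 (0.0562 to 0.0797) and Pdyn without smoke 1, 2, 3 or 4 or Nic-free 2, 3 or 4 (0.0513 to 0.12) (edgeR adjusted p). Pdyn also lost its call with RLE factors (0.054), with limma-voom (0.0639), with no filter (0.0571), with a stricter filter (0.0514), with thinned counts (0.0742) and with upper-quartile factors (0.0516), given with the adjusted p. The replicate block ended the calls of Penk and Pdyn (edgeR adjusted p = 0.0594 and 0.0822). Drd1 passed in every alternative, and Nrgn and Pdyn were named after their values were seen.

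Calls among the markers of other cell types are read against the same 2.86% higher and 5.64% lower of all genes with edgeR. Those of DESeq2 are read against 861 higher and 1043 lower of 15643 genes. Endothelial markers had 2 (8.7%) higher and 0 lower of 23 (median 0.23; DESeq2 called 4 higher, and 7 had an unadjusted p under 0.05, all higher), Itm2a and the adhesion receptor Adgrl4 (0.57 ± 0.15, edgeR adjusted p = 0.0419; call ended without smoke 1, 3 or 4 or Nic-free 1, 2 or 4 (0.073 to 0.126)). No pericyte (10 tested), smooth muscle (9), microglial (15), perivascular macrophage (7), oligodendrocyte precursor (8), erythroid (7) or lymphocyte (4) marker passed with edgeR, at 0, 1, 4, 0, 1, 2 and 1 with an unadjusted p under 0.05; DESeq2 called 1 microglial and 2 erythroid markers higher. Fibroblast and meningeal markers had 0 higher and 3 (25%) lower of 12 (median -0.29): Slc47a1, Dcn and Col1a1, at -0.84, -0.52 and -0.53 (edgeR adjusted p = 0.0147, 0.02 and 0.0331). Among 13 astrocyte markers 1 (7.69%), the transcription factor Sox9, was lower, with 30.7, 38.8, 39 and 33.6 CPM in smoke and 62.4, 62.9, 48.8 and 47.9 CPM in Nic-free (log2 fold change -0.66 ± 0.12, edgeR adjusted p = 0.00827). S100a8, a neutrophil alarmin and 1 of 4 markers tested of that list, with 13 reads in smoke and 68 in Nic-free, fell by 1.74 ± 0.39 (edgeR adjusted p = 0.0205). Choroid plexus and ependymal markers had no call of 14 with edgeR or DESeq2, and 0 with an unadjusted p under 0.05, but spread widely: their summed level was 1772 to 26360 CPM in smoke and 889 to 18700 CPM in Nic-free, and Ttr had 11460, 3970, 24530 and 1663 CPM in smoke and 17770, 7322, 4226 and 826 CPM in Nic-free. Sox9 passed in every alternative, while the calls ended for Slc47a1 without Nic-free 2 or 4 (0.0523 to 0.062), Dcn without smoke 1 or Nic-free 2 or 4 (0.0623 to 0.0789), Col1a1 without smoke 1, 2 or 3 or Nic-free 2, 3 or 4 (0.0522 to 0.119) and S100a8 without smoke 1 (0.0679) (edgeR adjusted p). The fit of all 19 libraries ended the calls of Adgrl4, Dcn, Col1a1 and S100a8 (edgeR adjusted p = 0.14, 0.146, 0.096 and 0.256). Only 10 of the alternative fits gave a value for S100a8, and it passed in 8 of them. DESeq2 called no marker of the neutrophil list.

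Large falls were found at several loci of non-coding RNA. Gm42418, a locus that overlaps a ribosomal RNA repeat (chr17:39846958-39848788, mm10), had 589, 825, 612 and 1602 CPM in smoke and 5660, 5293, 5443 and 5514 CPM in Nic-free (log2 fold change -2.61 ± 0.30, edgeR adjusted p = 0.00127). Lars2, which codes for the mitochondrial leucyl-tRNA synthetase, had 96.9, 144, 110 and 222 CPM in smoke and 717, 647, 677 and 683 CPM in Nic-free (log2 fold change -2.26 ± 0.23, edgeR adjusted p = 0.00109). Mir6236 had 41.9, 106, 45.3 and 104 CPM in smoke and 372, 352, 353 and 372 CPM in Nic-free (log2 fold change -2.30 ± 0.33, edgeR adjusted p = 0.0078). The 4 smoke libraries were below all 12 others in each, and the 4 Nic-free libraries were close together. The room air libraries lay between them except air 2, at 9336, 972 and 551 CPM for Gm42418, Lars2 and Mir6236. The RNA components of ribonuclease P (Rpph1) and ribonuclease MRP (Rmrp) fell by 2.81 ± 0.35 and 2.95 ± 0.44 (edgeR adjusted p = 0.0013 and 0.00414), at means of 0.28 ± 0.191 and 0.526 ± 0.555 CPM in smoke and 1.85 ± 0.214 and 4.27 ± 0.658 CPM in Nic-free (SD). Rn7sk, the RNA that restrains the elongation factor P-TEFb, fell by 1.53 ± 0.25 (edgeR adjusted p = 0.00492), a call that ended in the fit of all 19 libraries (0.0945). Gm15564 and Gm23935 fell by 2.51 ± 0.33 and 2.18 ± 0.25 (edgeR adjusted p = 0.00601 and 0.00271), and Malat1, a nuclear long non-coding RNA, had 4259, 5281, 4893 and 5782 CPM in smoke and 8087, 9258, 7653 and 8851 CPM in Nic-free (log2 fold change -0.76 ± 0.16, edgeR adjusted p = 0.0171; call ended without smoke 1 or Nic-free 2 or 4 (0.0771 to 0.0791)). Apart from Lars2, Mir6236 and Rn7sk, these loci were named after their values were seen. Where a locus has repeated copies, as with the ribosomal RNA repeat at Gm42418, its counts depend on how the authors' alignment placed shared reads. The libraries are of polyadenylated RNA and are not made to measure RNAs that are not polyadenylated. The part of library making in these falls was not tested.

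**Figure D4:**
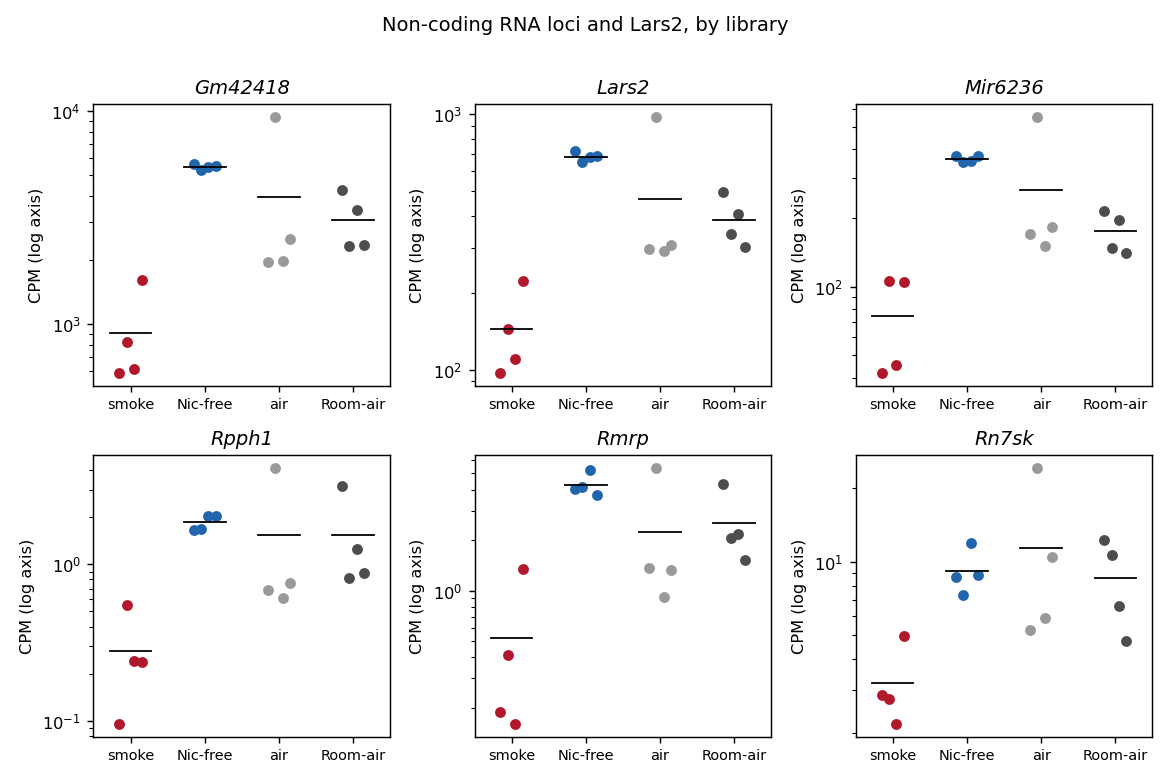
CPM on a log axis of 5 non-coding RNA loci and of Lars2, 1 point per library, with the mean (bar) of 4 libraries in each of the groups smoke, Nic-free, air and Room-air. The 4 smoke points lie below the 4 Nic-free points in each panel, with an overlap with air in Rmrp and with Room-air in Rn7sk, and in each panel the highest air point is air 2.

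Small non-coding RNA genes and pseudogenes held larger shares of falls than protein-coding genes, as a description without a test. The limit of polyadenylated RNA libraries given above holds for the small RNA genes too. Of 52 snRNA, snoRNA, scaRNA, ribozyme and misc_RNA genes tested, 0 were higher and 11 lower (21.2%), and of 221 pseudogenes 6 were higher and 26 lower (11.8%), against 433 higher and 775 lower (5.38%) of 14393 protein-coding genes. Of 520 lincRNA and antisense genes 2 were higher and 29 lower (5.58%). Among 24 miRNA genes 0 were higher and 3 lower, counted in libraries of polyadenylated RNA, which are not made to measure mature miRNAs. These were Mir6236, Gm23935 and Mir99a (-2.41 ± 0.31, edgeR adjusted p = 0.0016), which lies within the long transcript Mir99ahg (-1.10 ± 0.13, edgeR adjusted p = 0.00125). Mir99a had 0.381, 0.137, 0.482 and 0.474 CPM in smoke and 1.66, 2.26, 1.93 and 2.58 CPM in Nic-free, and Mir99ahg 15.8, 17.7, 18.9 and 23.6 CPM in smoke and 44.6, 43.7, 33.8 and 40.1 CPM in Nic-free. The mature sequences of the RefSeq miRNAs of these loci are given for their identity, 5′ to 3′ with the seed (bases 2 to 8) in capitals, from GRCm38.p6 (chr9:110281353-110281371 and chr16:77598940-77598961, both on the plus strand); their seeds differ.
miR-6236: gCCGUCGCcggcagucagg
miR-99a-5p: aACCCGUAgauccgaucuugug

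Genes with a long genomic span were called lower more often. Ranked by span into 5 bins of 3099 genes, the share lower in smoke was 5, 3.45, 3.42, 4.68 and 11.3% for median spans of 4.02, 11.8, 23.7, 47.7 and 135 kb, while the share higher stayed between 2.1 and 3.78%. These shares moved with single libraries: the longest bin had 4.4, 5.19, 5.42 and 7.35% lower without Nic-free 4, Nic-free 2, smoke 1 or Nic-free 1, and it was the highest of the 5 bins with any of the 8 libraries left out. Ranked instead by exon length, the share lower was 4.16, 4, 4.84, 5.9 and 8.94%, and the share higher 0.968, 2.16, 3.16, 3.77 and 4.33%, shortest first. Nrxn3 (chr12:88722876-90334935) and Grin2b (chr6:135713233-136173511), described above, lie in the bin of the longest spans. The share of reads in no feature, which would include introns if exons alone were counted, was the higher one in Nic-free, as given above. Which part of a gene was counted is not given in the sources used here, and the part of the no-feature share in these falls was not tested. Of the 1330 called genes 390 (29.3%) overlap an exon on the opposite strand, as do 31.1% of all genes tested, and the counts of these are uncertain because whether counting used strand is not given in the sources used here.

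The exposure-free comparison of air with Room-air shares no library with the direct one. It called 3952 of 16244 genes (24.3%), 1798 higher and 2154 lower in air, by the same edgeR test (n = 4 each). Thus libraries with the same label differed at more genes than smoke and Nic-free did. Total counts were 9.8 to 13.5 M in air and 25.3 to 30.2 M in Room-air, so depth did not overlap here either. The part of depth and of the spread within groups in these counts of genes was not tested. Of the 448 genes higher in smoke, 21 (4.69%) were also higher and 91 (20.3%) were lower in air than in Room-air. Of the 882 lower in smoke, 50 (5.67%) were also lower and 153 (17.3%) higher in air. Over all genes tested for air against Room-air, 11.1% were higher and 13.3% lower in air. The genes called in both comparisons went in opposite directions in 244 cases and in the same direction in 71. The 244 included Nfe2l2, Irf9, Jam2, Maff, Atf3 and Adgrl4. Their log2 fold changes for air over Room-air were -0.45, -0.43, -0.61, -1.83, -0.81 and -1.16 (edgeR adjusted p = 0.0113, 0.0143, 0.00761, 0.000246, 0.035 and 0.00583). The 71 included Kif5a, Klf6, Timp2, Mmp14 and Col1a1, at 0.50, -0.48, -0.62, -1.09 and -0.56 (edgeR adjusted p = 0.0244, 0.0119, 0.00117, 0.000385 and 0.0333). As shares of the air calls, the opposite ones were 8.51% of the 1798 higher and 4.22% of the 2154 lower. Over all genes tested for smoke against Nic-free, 5.64% were lower and 2.86% higher in smoke, in the same order. Across 15591 genes tested in both, the log2 fold changes had a Pearson r of -0.258 and a Spearman rho of -0.24, and 42.4% had the same sign. Genes are not independent replicates, so no p is given. The 71 became 22, 26, 28, 39, 43, 44 and 47 without Nic-free 4, smoke 1, Nic-free 2, air 2, Nic-free 1, smoke 4 or air 3, and 112 without smoke 3. The 244 became 71, 86, 111 and 147 without Nic-free 4, Nic-free 2, smoke 1 or Nic-free 1, and 368 without smoke 2. Without air 3, 1198 genes were higher in air.

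**Figure D5:**
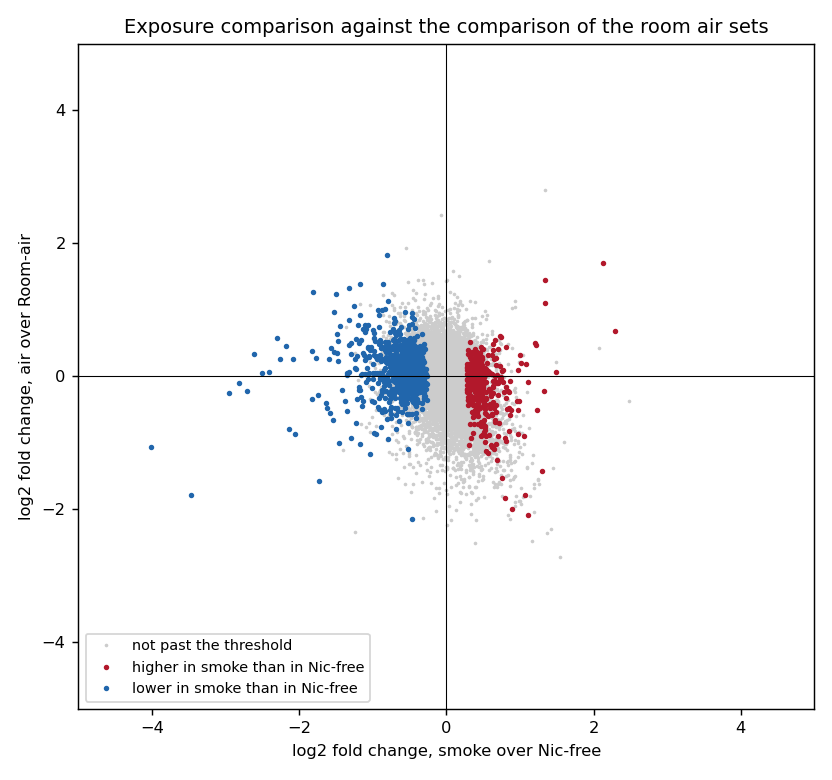
Log2 fold change of smoke over Nic-free (x axis) against that of air over Room-air (y axis) for the 15591 genes tested in both, 1 point per gene, red where higher and blue where lower in smoke past the threshold. The calls lie to both sides of 0 on the y axis, with 91 of the red genes (20.3%) called lower and 153 of the blue genes (17.3%) called higher in air. Of all genes tested there, 13.3% were lower and 11.1% higher in air.

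Values also differed once a room air set was subtracted. The pairing of sets to exposures was taken from the titles alone. The difference of smoke minus air against Nic-free minus Room-air, fitted over 16 libraries with edgeR, called 3798 of 16172 genes (23.5%). It uses the same smoke and Nic-free libraries, so its values are set beside the direct ones and add no independent evidence. For Cd47 the log2 difference was -1.03 (edgeR adjusted p = 0.000138), for Gabrb1 -1.38 (0.00023), for Nrxn3 -1.34 (0.000155) and for Scn2a -1.20 (0.000178), beside direct values of -1.07, -1.25, -1.05 and -1.07. These 4 genes were named by a rule that asked for a call after subtraction and for none between air and Room-air, so this pattern was chosen and is no finding. Itm2a, in contrast, had 1.78 (9.5e-05) after subtraction and 0.80 directly, Fmo2 2.72 (0.000159) and 1.30, and Fzd4 3.65 (0.000617) and 1.16. Among barrier genes, Slc2a1 had 1.78 (8.43e-05) after subtraction and 0.25 (0.407) directly, with -1.54 (2.33e-05) for air over Room-air. Ocln had 1.55 (0.000778), 0.39 (0.244) and -1.15 (0.000385) in the same order. Cdkn1a turned its direction, at 1.69 (4.36e-05) after subtraction, -0.46 (0.0216) directly and -2.15 (2.26e-05) for air over Room-air. Endothelial markers as a list had a median of 0.23 for smoke over Nic-free and -0.77 for air over Room-air, with 15 of 23 lower in air.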

How the data were processed

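Counts per gene were deposited by the authors as 1 table per library, with STAR, HTSeq and mm10 named without versions per the submitters' processing notes. Each deposited count table lists 39179 genes and 5 summary lines, which stayed out of library sizes and tests (their shares are given above). Of the genes, 37693 took a name from GENCODE M21. Genes were filtered by filterByExpr, scaled by TMM and tested with edgeR 4.0.16 in R 4.3.3 (quasi-likelihood, robust), with Benjamini-Hochberg adjustment over all genes tested and a threshold of 0.05. Levels are CPM on 1 TMM scale over 16 libraries. The script was tested on simulated data. Alternatives used DESeq2 1.42.0, limma 3.58.1 (voom), other scalings and filters, thinned counts, a fit of all 19 libraries, a replicate block and each library left out. Genes were named by a fixed list, by the lowest adjusted p within lists (up to 4 each), by the largest changes at 5 CPM or more without overlap, by the lowest p, and by the lowest p among genes that also passed after subtraction and not in air against Room-air. The members and lists were chosen with earlier results of these data known. Analyses of the 3 other libraries are not used here except in the fit of all 19. Values of some named genes are not reported here.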

Additional observations from a re-analysis of the deposited data

Results flagged for a closer look

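Among 238 groups of 4 libraries, 16 held a library whose gap to the nearest other was large for the range of its group (Dixon's criterion), where chance gives about 11.9. All values are CPM. In smoke, replicate 3 was low for Mfsd2a (46.9, others 64.1 to 67.7), high for Nfe2l2 (45.5, others 34.5 to 36), and the only one with a Cyp1a1 read (0.0803). Smoke 2 was high for Nwd1 (230.3, others 135.9 to 151.8), Fads2 (211.1, others 114.4 to 124) and Sesn3 (37.01, others 21.98 to 22.58). Smoke 4 was high for Gkn3 (107.9, others 53.5 to 61.2) and smoke 1 for Sgsm1 (183.5, others 146.2 to 146.9).

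In Nic-free, replicate 2 was high for Hspa1a (5.39, others 4.71 to 4.75), S100a8 (1.565, others 0.792 to 0.887) and Plcd4 (26.95, others 24.7 to 25), and low for Hspa1b (3.71, others 4.22 to 4.33). Nic-free 4 was high for Inhba (9.90, others 6.38 to 6.94), and low for Fads2 (66.3, others 79.8 to 81.6). Nic-free 1 was high for Fzd4 (10.5, others 4.03 to 4.90), and Nic-free 3 was low for Scn2a (326.8, others 413.6 to 419.2).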

How the results depend on the processing

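No gene of the 1330 reversed in those of the 17 alternative fits that tested it, and fits of the same libraries left little room for that. Of 80 named genes past the threshold, 41 passed in every alternative fit. At an adjusted p under 0.01, smoke against Nic-free kept 323 calls (46 higher, 277 lower), air against Room-air 1750 (695 and 1055) and the difference after subtraction 1731 (831 and 900). DESeq2 called 861 genes higher. Leaving out 1 library gave 373 to 1696 calls for smoke against Nic-free (76 to 698 higher, 297 to 998 lower), and 1198 to 1864 higher for air against Room-air. The calls shared with it were 22 to 112 in the same and 71 to 368 in the opposite direction. The no-feature difference was -12.4 to -10.3 percentage points, at an exact permutation p of 0.0571, the smallest that 3 against 4 libraries can give. Thinning to the smallest library gave 1094 calls, of which 1029 were among the 1330; depth limits genes of few reads. For same-numbered libraries, the deviations from the group means had r of 0.152, 0.0489, -0.244 and 0.492. For differently numbered ones r ran from -0.557 to 0.629. So few values cannot decide whether the numbers pair libraries. With the replicate block 1075 genes were called, 321 higher and 754 lower. The cause of these moves was not tested. Directions reversed only in genes that did not pass: Nqo1 (0.001629 in the fit of 19 libraries), Cyp1b1 (0.008675 with RLE factors, 0.01669 with 19 libraries, 0.008195 with no filter, 0.01031 with a stricter one), Ahrr (0.09207 thinned) and Mt2 (0.01531 with DESeq2, 0.01253 with RLE, 0.01213 with 19 libraries, 0.007847 with no filter, 0.01164 with a stricter one, 0.02777 thinned). Without single libraries the log2 fold change spanned -0.55 to 0.41 for Nqo1, -0.28 to 0.17 for Cyp1b1, -0.14 to 0.0098 for Ahrr, -0.42 to 0.10 for Mt1, -0.29 to 0.19 for Mt2, -0.26 to 0.054 for Cldn5, -0.01915 to 0.18 for Mfsd2a, -0.45 to 0.0008007 for Fos and -0.41 to 1.33 for Ttr.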
